A study of Arabidopsis thaliana with 24 samples.

Results

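The genes described here are 10 Arabidopsis thaliana genes of the aliphatic glucosinolate pathway, chosen by locus identifier out of the 32833 genes in the deposited count table. They are the core enzyme genes CYP79F1 (AT1G16410), CYP79F2 (AT1G16400), CYP83A1 (AT4G13770), GSTF11 (AT3G03190), GSTU20 (AT1G78370), UGT74C1 (AT2G31790), SOT17 (AT1G18590) and SOT18 (AT1G74090), and the side-chain genes FMOGS-OX1 (AT1G65860) and FMOGS-OX3 (AT1G62560). RNA was sequenced from rosettes of wild-type plants, in 6 groups of 4 libraries, 24 in all. Primed plants came from seed treated with methyl jasmonate, the volatile ester of a wound hormone, and not-primed plants from seed given H2O. Each kind was sampled 24 h after infestation with caterpillars of Pieris brassicae, a leaf-chewing specialist of the cabbage family, 24 h after infestation with Tetranychus urticae, a spider mite and generalist that empties single leaf cells, or as uninfested controls. The sources used here do not give the dose of methyl jasmonate, the age of the plants or the number of animals per plant. The labels number the biological replicates without saying whether each was 1 plant or a pool, and each p-value refers to the spread among these libraries, which may be partly technical.

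Glucosinolates are sulfur-rich compounds stored in plants of the cabbage order, and the enzyme myrosinase turns them into toxic products when tissue is crushed. Aliphatic glucosinolates are built from methionine, whose side chain is first lengthened in repeated cycles. A core structure is then made by a chain of enzymes, and the side chain is oxidised and modified last. Related enzymes build the indole glucosinolates from tryptophan, and some core enzymes serve both branches.

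All 10 genes passed the filter on low counts, with 243 to 18903 counts per library. Per gene length, in the deposited FPKM (fragments per kilobase of gene, scaled to depth), GSTU20 had the highest median level over the 24 libraries, 471 FPKM. CYP83A1 followed with a median of 247 FPKM and CYP79F1 with 150 FPKM. At the low end, GSTF11 had a median of 40.6 FPKM and CYP79F2 a median of 8.67 FPKM. UGT74C1 (117 FPKM), SOT18 (81.8 FPKM), SOT17 (64.4 FPKM), FMOGS-OX1 (61.5 FPKM) and FMOGS-OX3 (44.7 FPKM) lay between. The library ranges of neighbours in this order overlapped, except those of GSTF11 (14.1 to 70.9 FPKM) and CYP79F2 (5.76 to 13.7 FPKM). Between the lowest and the highest library, the level differed by a factor of 5.03 for GSTF11 and of 2.01 for UGT74C1, the widest and narrowest ranges of the 10.

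By the RefSeq annotation of assembly TAIR10.1, CYP79F2 (chr1:5605044-5607498) and CYP79F1 (chr1:5608682-5612064) lie next to each other on the plus strand. Their coding sequences are 90.7% identical, and 54 of the 1565 runs of 50 bases in CYP79F2 also occur in CYP79F1. Reads that lie wholly within such runs cannot be assigned by sequence alone, while reads that reach past them can be. The values of CYP79F2, the far lower gene, may be uncertain to that extent. SOT17 and SOT18 are 76.5% identical and FMOGS-OX1 and FMOGS-OX3 82.6% identical in coding sequence, and neither pair shares a run of 50 bases. The deposited files hold no coordinates, and the submitters' processing notes name the TAIR10 build.

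The 250 bases before the annotated start of each gene were searched on both strands for 4 kinds of motif, since the 10 genes varied together. These were the G-box CACGTG and the T/G-box AACGTG, both bound by MYC-type factors of jasmonate signalling, the AC elements bound by MYB-type factors, of which AC-I reads ACCTACC, AC-II reads ACCAACC and AC-III reads ACCTAAC, and the W-box, TTGACC or alternatively TTGACT, bound by WRKY factors. The T/G-box occurred in 4 of the 10 (CYP79F2, GSTF11, SOT17 and FMOGS-OX1) and in 7.54% of 27443 upstream windows of the same length in the genome. An AC element occurred in 4 of the 10 (CYP79F2, CYP83A1, SOT17 and FMOGS-OX1), against 6.12% of all windows. The G-box occurred in CYP83A1 alone (6.49% of all windows) and the W-box in SOT17 alone (28.4% of all windows). The windows of the 3 related pairs are shown, since the ratio within each pair separated mite from control libraries. Each runs 5′ to 3′ on the gene's own strand, in lower case, with T/G-boxes and AC elements in capitals on whichever strand they lie. The windows are CYP79F1 at chr1:5608432-5608681 (+), CYP79F2 at chr1:5604794-5605043 (+), SOT17 at chr1:6398281-6398530 (+), SOT18 at chr1:27862564-27862813 (+), FMOGS-OX1 at chr1:24502777-24503026 (-) and FMOGS-OX3 at chr1:23159484-23159733 (+), all in TAIR10.1.
CYP79F1: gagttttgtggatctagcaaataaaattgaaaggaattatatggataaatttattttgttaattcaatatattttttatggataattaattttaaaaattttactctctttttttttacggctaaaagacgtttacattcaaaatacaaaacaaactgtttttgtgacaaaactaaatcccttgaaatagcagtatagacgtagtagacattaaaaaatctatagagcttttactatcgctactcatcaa
CYP79F2: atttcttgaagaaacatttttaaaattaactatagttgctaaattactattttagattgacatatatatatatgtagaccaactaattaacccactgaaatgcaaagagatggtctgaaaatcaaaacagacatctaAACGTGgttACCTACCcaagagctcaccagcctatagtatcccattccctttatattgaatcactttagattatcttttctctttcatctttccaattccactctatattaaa
SOT17: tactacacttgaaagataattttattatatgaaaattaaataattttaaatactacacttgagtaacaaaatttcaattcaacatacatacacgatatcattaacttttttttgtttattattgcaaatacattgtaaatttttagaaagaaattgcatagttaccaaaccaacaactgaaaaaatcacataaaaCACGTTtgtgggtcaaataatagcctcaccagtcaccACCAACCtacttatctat
SOT18: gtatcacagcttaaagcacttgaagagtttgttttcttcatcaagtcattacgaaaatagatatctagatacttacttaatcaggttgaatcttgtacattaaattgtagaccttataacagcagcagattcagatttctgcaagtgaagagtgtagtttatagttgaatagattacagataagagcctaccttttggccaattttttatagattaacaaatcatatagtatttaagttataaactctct
FMOGS-OX1: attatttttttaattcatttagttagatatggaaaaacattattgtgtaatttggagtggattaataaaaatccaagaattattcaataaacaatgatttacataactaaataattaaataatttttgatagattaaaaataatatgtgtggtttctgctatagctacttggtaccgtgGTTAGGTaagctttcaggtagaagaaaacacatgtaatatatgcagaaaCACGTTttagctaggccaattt
FMOGS-OX3: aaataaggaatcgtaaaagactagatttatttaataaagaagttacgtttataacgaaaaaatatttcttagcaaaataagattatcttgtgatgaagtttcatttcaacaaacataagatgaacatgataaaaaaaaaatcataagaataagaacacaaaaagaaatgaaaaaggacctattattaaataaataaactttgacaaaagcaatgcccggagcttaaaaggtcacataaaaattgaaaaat
In each pair, 1 window held both a T/G-box and an AC element (CYP79F2, SOT17 and FMOGS-OX1) and the other held neither. With mites over controls, the ratio of the gene with both motifs to its relative was higher for SOT17 and FMOGS-OX1 and lower for CYP79F2. No ratio passed 0.05 after adjustment over 27 exact permutation tests, where the smallest p that 4 against 4 libraries allow, 0.0286, became 0.0551. A match is a description of letters and shows no binding.

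Library totals ran from 15852109 to 27986799 counts. The rosette markers RBCS1A, LHCB1.3 and CA1 summed to 22800 to 36900 CPM (counts scaled to library size) in every library, and the 3 root markers to at most 0.358 CPM, the 2 seed markers to at most 0.436 CPM and the 3 flower markers to at most 4.64 CPM. Markers of phloem, bundle sheath, guard cells and trichomes (SUC2, SULTR2;2, FAMA, MYB60 and GL2) summed to 229 to 259 CPM in primed and 225 to 274 CPM in not-primed caterpillar plants, to 261 to 291 CPM in primed and 248 to 287 CPM in not-primed mite plants, and to 212 to 227 CPM in primed and 183 to 196 CPM in not-primed controls, and none of the 5 was at 0 in all libraries. In rosette RNA, more cells of a type and more RNA per cell cannot be told apart. In the not-primed controls, replicates 3 and 4 both lay above replicates 1 and 2 for all 10 genes, by factors of the means of 1.33 (UGT74C1) to 1.80 (CYP79F1), and 26.5% of the 20038 tested genes showed that order. In the not-primed caterpillar plants, replicates 1 and 2 both lay above replicates 3 and 4 for all 10 genes, by 1.13 (SOT18) to 1.41 (FMOGS-OX1), and 19.8% of tested genes showed that order. Values with one or the other pair left out are therefore given beside the comparisons that use these groups.

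**Figure D1:**
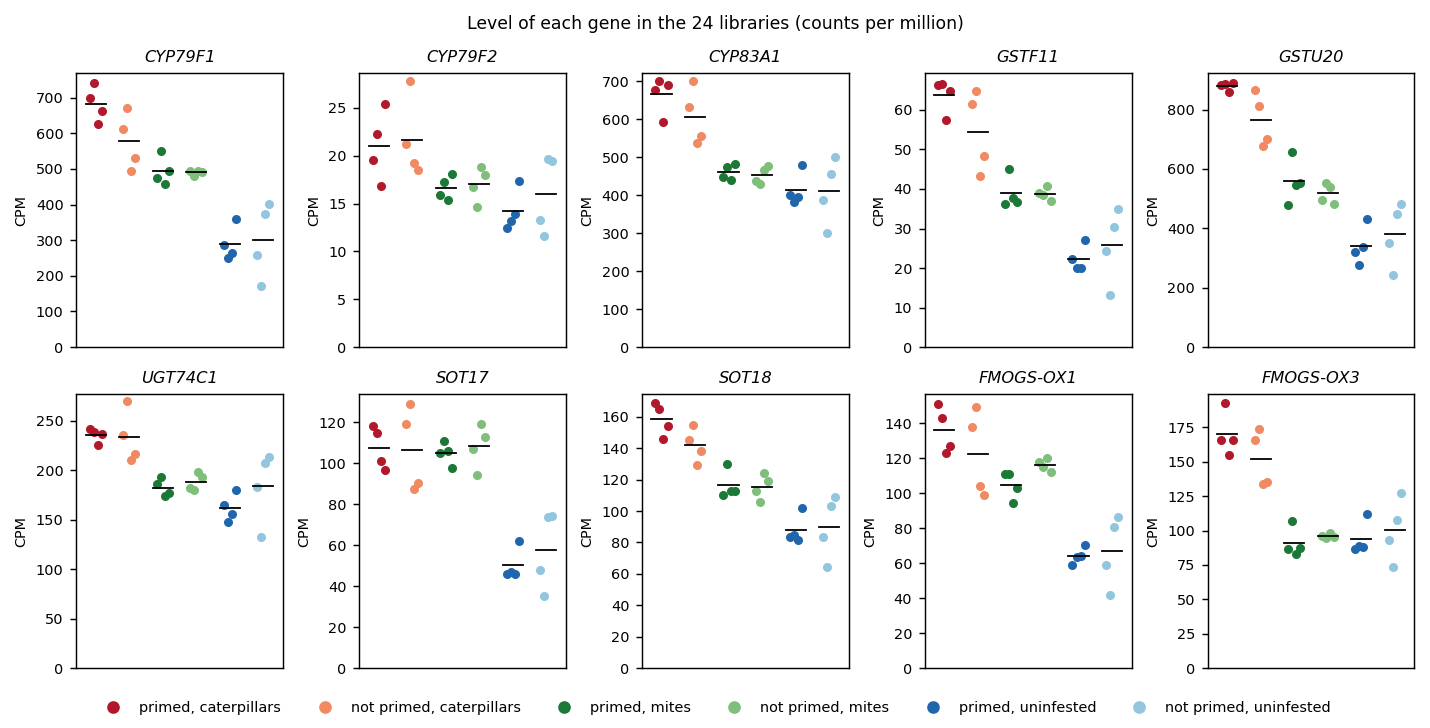
Levels in CPM (linear axes from 0) of the 10 genes; each point is 1 library, in order of replicate number within a group, and each line is a group mean of 4 libraries. Both caterpillar groups have the highest means in 9 of the 10 panels, and in the SOT17 panel mite and caterpillar means lie between 105 and 108 CPM.

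Caterpillars raised all 10 genes. With edgeR's quasi-likelihood test over 20038 genes, 10 of 10 were higher in primed caterpillar plants than in primed controls at an adjusted p under 0.05, where 12.1% of all tested genes were higher. In not-primed plants 10 of 10 were also higher, where 14.2% of all tested genes were. The median log2 fold change of the 10 was 0.97 in primed and 0.76 in not-primed plants, beside -0.01 and 0.00 for all tested genes. Of the 3 rosette markers, 2 fell with caterpillars in each kind of plant, with medians of -0.18 in primed and -0.24 in not-primed plants. Of 20038 tested genes, 4789 in primed and 5574 in not-primed plants were called in either direction. In not-primed plants 0 of the 3 markers fell without control replicates 1 and 2 (median -0.09), and 2 without replicates 3 and 4 (-0.37). Without caterpillar replicates 1 and 2, or 3 and 4, 1 marker fell (-0.21 and -0.20). The part of the rosette markers in the result was not tested.

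The entry step turns chain-elongated methionine into aldoximes. CYP79F1, which accepts short and long chains, had 700, 740, 626 and 662 CPM in primed caterpillar plants, against 287, 249, 265 and 359 CPM in primed controls. The groups did not overlap, and every caterpillar library lay above the highest control. In not-primed plants CYP79F1 had 611, 671, 495 and 531 CPM with caterpillars, against 258, 172, 374 and 402 CPM in controls. Those groups did not overlap either, and the controls were spread more widely. The log2 fold change was 1.23 ± 0.16 (SE, n = 4 per group, edgeR adjusted p 4.01e-06) in primed and 0.94 ± 0.16 (adjusted p 0.000116) in not-primed plants. CYP79F2, which mainly serves long chains, had 19.5, 22.3, 16.8 and 25.4 CPM in primed caterpillar plants, against 12.4, 13.2, 13.9 and 17.3 CPM in primed controls. These groups overlapped, with 1 control above the lowest caterpillar library. Its log2 fold change was 0.57 ± 0.16 (adjusted p 0.0105) in primed and 0.43 ± 0.16 (adjusted p 0.0387) in not-primed plants.

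The aldoximes are oxidised by CYP83A1. It averaged 665 ± 49.6 CPM in primed caterpillar plants and 414 ± 44.0 CPM in primed controls (SD, n = 4 each), a log2 fold change of 0.68 ± 0.11 (edgeR adjusted p 3.96e-05). In not-primed plants the log2 fold change was 0.56 ± 0.11 (adjusted p 0.000353), and neither comparison overlapped. GSTF11 and GSTU20 are glutathione transferases assigned to the conjugation step that brings in sulfur, and they had the largest responses of the 10. GSTF11 had 66.4, 66.6, 57.4 and 64.7 CPM in primed caterpillar plants, against 22.3, 20.1, 19.9 and 27.2 CPM in primed controls. Its log2 fold change was 1.51 ± 0.18 (adjusted p 8.79e-07) in primed and 1.08 ± 0.18 (adjusted p 4.92e-05) in not-primed plants. Every primed caterpillar library lay far above the highest primed control. GSTU20 had 883, 887, 858 and 890 CPM in primed caterpillar plants, against 319, 275, 337 and 433 CPM in primed controls. Its 4 primed caterpillar libraries lay close together and well above the controls. Its log2 fold change was 1.37 ± 0.15 (adjusted p 3.25e-07) in primed and 1.00 ± 0.15 (adjusted p 1.51e-05) in not-primed plants.

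UGT74C1, a glucosyltransferase assigned to the step that adds the glucose, had the smallest response to caterpillars. It averaged 236 ± 7.28 CPM in primed caterpillar plants and 162 ± 13.8 CPM in primed controls, a log2 fold change of 0.54 ± 0.10 (edgeR adjusted p 0.000224), and 0.34 ± 0.10 (adjusted p 0.0107) in not-primed plants. SOT17 and SOT18 are sulfotransferases of the last core step. SOT17 rose by a log2 fold change of 1.10 ± 0.17 (adjusted p 2.17e-05) in primed and 0.88 ± 0.16 (adjusted p 0.000249) in not-primed plants. SOT18 rose by 0.85 ± 0.11 (adjusted p 2.8e-06) and 0.65 ± 0.11 (adjusted p 7.81e-05) on the same scale.

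FMOGS-OX1 and FMOGS-OX3 are flavin monooxygenases that oxidise the methylthio end of the side chain to a methylsulfinyl group. FMOGS-OX1 had 151, 143, 123 and 127 CPM in primed caterpillar plants, against 58.9, 63.5, 64.2 and 70.5 CPM in primed controls. Its log2 fold change was 1.08 ± 0.15 (edgeR adjusted p 7.52e-06) in primed and 0.87 ± 0.15 (adjusted p 9.74e-05) in not-primed plants. FMOGS-OX3 had 166, 193, 155 and 166 CPM in primed caterpillar plants, against 86.8, 88.7, 88.2 and 112 CPM in primed controls. The groups did not overlap for either gene. The log2 fold change of FMOGS-OX3 was 0.85 ± 0.12 (adjusted p 1.11e-05) in primed and 0.60 ± 0.12 (adjusted p 0.00058) in not-primed plants.

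Caterpillar and control groups did not overlap for 9 of the 10 genes in primed plants (12.2% of tested genes lay wholly above) and for 8 of 10 in not-primed plants (12.8%). With not-primed control replicates 1 and 2 left out, 8 of the 10 stayed called (12.5% of tested genes called in either direction), and CYP79F2 (log2 fold change 0.14, adjusted p 0.633) and UGT74C1 (0.15, adjusted p 0.26) did not. Without caterpillar replicates 1 and 2 of the not-primed group the same 2 genes were not called (0.23, adjusted p 0.422, and 0.21, adjusted p 0.232). With control replicates 3 and 4 left out, or caterpillar replicates 3 and 4, all 10 were called (34.5% and 23.1% of tested genes called in either direction). In an edgeR fit of the not-primed caterpillar and control libraries alone, CYP79F2 and UGT74C1 were not called either (adjusted p 0.122 and 0.103). Leaving out single libraries ended the call of CYP79F2 in not-primed plants without caterpillar replicate 1 or 2 or control replicate 1 or 2 (adjusted p up to 0.174) and in primed plants without caterpillar replicate 4 (0.0536), and that of UGT74C1 in not-primed plants without caterpillar replicate 2 (0.0523).

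Mites raised 6 of the 10 genes, and the same 6 in primed and in not-primed plants: CYP79F1, GSTF11, GSTU20, SOT17, SOT18 and FMOGS-OX1. Of all tested genes, 22.3% were higher with mites in primed plants and 26.5% in not-primed plants. None of the 10 was lower, where 23.5% of tested genes were lower in primed and 24.9% in not-primed plants. The median log2 fold change of the 10 was 0.56 in primed and 0.40 in not-primed plants, beside -0.02 and 0.01 for all tested genes. The mite groups lay wholly above their controls for 6 genes in primed plants (21.2% of tested genes) and for 5 in not-primed plants (23.5%).

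SOT17 had the largest response to mites. It had 105, 111, 106 and 97.8 CPM in primed mite plants, against 45.8, 47.1, 45.9 and 62.3 CPM in primed controls. In not-primed plants it had 107, 94.2, 119 and 113 CPM with mites, against 47.9, 35.4, 73.9 and 74.1 CPM in controls. All 8 mite libraries lay above all 8 control libraries. The log2 fold change was 1.06 ± 0.17 (edgeR adjusted p 1.06e-05) in primed and 0.91 ± 0.16 (adjusted p 5.04e-05) in not-primed plants. FMOGS-OX1 had 111, 111, 94.6 and 103 CPM in primed mite plants, against 58.9, 63.5, 64.2 and 70.5 CPM in primed controls. In not-primed plants FMOGS-OX1 had 118, 115, 120 and 112 CPM with mites, against 59.1, 41.6, 80.5 and 86.4 CPM in controls. Its 8 mite libraries, too, lay above its 8 control libraries, with a log2 fold change of 0.71 ± 0.15 (adjusted p 0.00041) in primed and 0.80 ± 0.15 (adjusted p 7.52e-05) in not-primed plants. CYP79F1 averaged 494 ± 40.9 CPM in primed mite plants and 290 ± 48.3 CPM in primed controls, a log2 fold change of 0.77 ± 0.16 (adjusted p 0.000389), and 0.70 ± 0.16 (adjusted p 0.000787) in not-primed plants.

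The glutathione transferase genes and SOT18 also rose with mites. GSTF11 rose by a log2 fold change of 0.80 ± 0.18 (edgeR adjusted p 0.000647) in primed and 0.59 ± 0.18 (adjusted p 0.0067) in not-primed plants. GSTU20 rose by 0.71 ± 0.15 (adjusted p 0.000301) and 0.44 ± 0.15 (adjusted p 0.014) on that scale. SOT18 rose by 0.41 ± 0.11 (adjusted p 0.00366) and 0.36 ± 0.11 (adjusted p 0.0083).

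The other 4 genes did not pass the test with mites. FMOGS-OX3 had 86.3, 107, 83.1 and 87.6 CPM in primed mite plants, against 86.8, 88.7, 88.2 and 112 CPM in primed controls. In not-primed plants FMOGS-OX3 had 95.7, 94.8, 98.1 and 95.6 CPM with mites, against 93.2, 73.6, 108 and 127 CPM in controls. Mite and control libraries overlapped throughout, with log2 fold changes of -0.05 (95% interval -0.30 to 0.21) in primed and -0.07 (-0.32 to 0.19) in not-primed plants. UGT74C1 had log2 fold changes of 0.17 (-0.04 to 0.37) and 0.04 (-0.17 to 0.24), and CYP83A1 of 0.15 (-0.07 to 0.38) and 0.14 (-0.09 to 0.36). CYP79F2 had 0.23 (-0.10 to 0.56) and 0.09 (-0.24 to 0.42). In an edgeR fit of the mite and control libraries alone, CYP83A1 (0.18, adjusted p 0.0232), UGT74C1 (0.19, adjusted p 0.0101) and CYP79F2 (0.26, adjusted p 0.0453) passed in primed plants. In not-primed plants that fit did not call GSTU20 (adjusted p 0.0561) or SOT18 (adjusted p 0.0558).

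The mite result in not-primed plants moved with the pair of controls. Without control replicates 1 and 2 the log2 fold changes of SOT17 (0.54 ± 0.14), FMOGS-OX1 (0.47 ± 0.12) and CYP79F1 (0.33 ± 0.11) still passed, those of GSTF11 (0.24), GSTU20 (0.14) and SOT18 (0.11) did not, and FMOGS-OX3 fell by 0.30 ± 0.11 (adjusted p 0.0404), with 37.9% of tested genes called in either direction. Without replicates 3 and 4 all but FMOGS-OX3 rose, and 50.7% of tested genes were called. Without control replicate 2 alone, the call of GSTU20 was lost (adjusted p 0.068). Beside these results, the phloem marker SUC2 rose with mites by a log2 fold change of 0.40 ± 0.08 (edgeR adjusted p 0.000112) in primed and 0.60 ± 0.08 (adjusted p 3.86e-07) in not-primed plants, and the trichome marker GL2 by 0.28 ± 0.10 (adjusted p 0.0253) and 0.74 ± 0.10 (adjusted p 1.11e-06). With caterpillars SUC2 had 0.19 ± 0.08 (adjusted p 0.0696) in primed and 0.42 ± 0.08 (adjusted p 0.000141) in not-primed plants. GL2 rose with caterpillars by 0.36 ± 0.10 (adjusted p 0.00927) and 0.65 ± 0.10 (adjusted p 3.11e-05). Of the 5 phloem, bundle sheath, guard cell and trichome markers, 2 rose with mites in each kind of plant. Their medians were 0.10 in primed and 0.19 in not-primed plants. With caterpillars 1 of the 5 rose in primed (median -0.03) and 3 in not-primed plants (median 0.27). The shares of all tested genes are those given above, and no marker of the 5 was called lower with either pest. All 3 rosette markers fell with mites, RBCS1A most, by 0.48 ± 0.06 in primed (adjusted p 1.59e-06) and 0.71 ± 0.07 (adjusted p 2.87e-09) in not-primed plants. The part of these markers in the results was not tested.

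**Figure D2:**
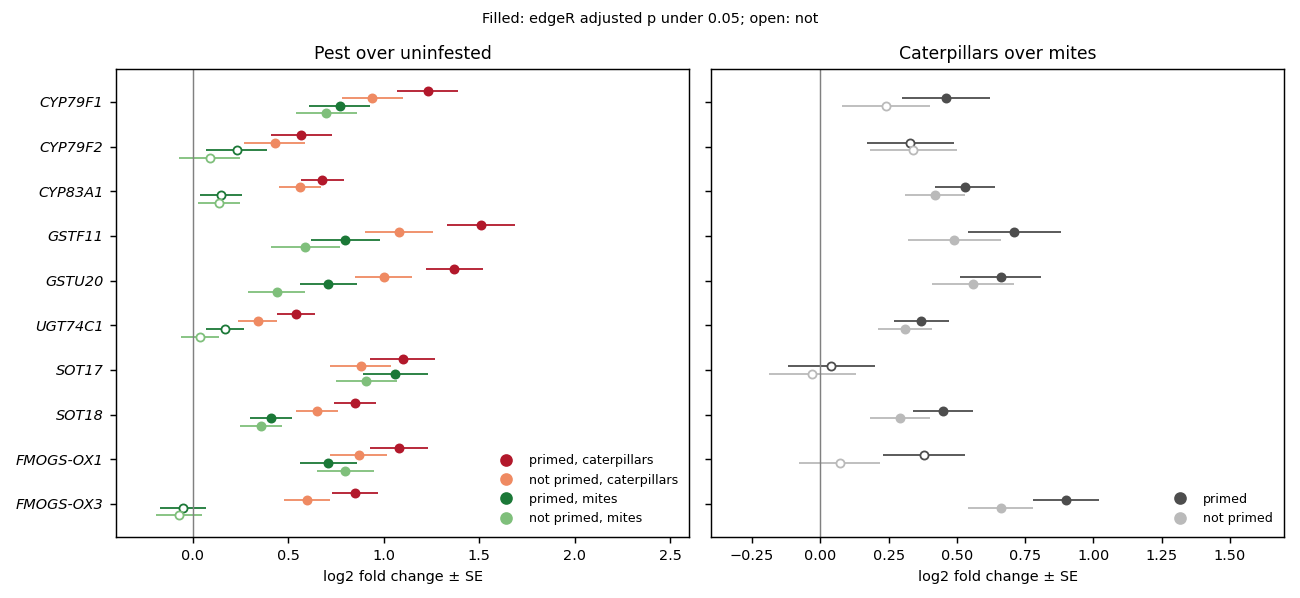
Log2 fold changes (points) with SE (bars) of the 10 genes, for each pest over its uninfested controls (left panel) and for caterpillars over mites (right panel). All caterpillar points are filled (adjusted p under 0.05), mite points of CYP79F2, CYP83A1, UGT74C1 and FMOGS-OX3 are open, and FMOGS-OX3 lies furthest right of the 10 in the right panel.

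Caterpillar plants were compared directly with mite plants. In primed plants 7 of the 10 genes were higher with caterpillars (10.5% of tested genes), and in not-primed plants 6 of 10 (13.7%). None was lower, where 11.5% of tested genes were lower in primed and 11.9% in not-primed plants. The median log2 difference of the 10 was 0.46 in primed and 0.33 in not-primed plants. The rosette markers moved the same way, with 2 of 3 higher in primed (median 0.30) and 3 of 3 in not-primed plants (median 0.34), and their part in the result was not tested. FMOGS-OX3 differed most, by a log2 fold change of 0.90 ± 0.12 (edgeR adjusted p 9.47e-06) in primed and 0.66 ± 0.12 (adjusted p 0.000256) in not-primed plants. Its 8 caterpillar libraries, from 134 to 193 CPM, lay above its 8 mite libraries, from 83.1 to 107 CPM. CYP83A1 was higher by 0.53 ± 0.11 (adjusted p 0.000852) and 0.42 ± 0.11 (adjusted p 0.00507), and GSTU20 by 0.66 ± 0.15 (adjusted p 0.00198) and 0.56 ± 0.15 (adjusted p 0.00566), in the same order. GSTF11, UGT74C1 and SOT18 were also higher in both kinds of plant, and CYP79F1 in primed plants only at this threshold (0.46 ± 0.16, adjusted p 0.0411, against 0.24 ± 0.16, adjusted p 0.318, in not-primed plants). The difference between those values of CYP79F1 had an adjusted p of 0.812.

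SOT17 stood at nearly equal levels under both pests, with a log2 fold change of 0.04 (95% interval -0.30 to 0.37) in primed and -0.03 (-0.36 to 0.30) in not-primed plants. FMOGS-OX1 had 0.38 (0.07 to 0.68, adjusted p 0.0713) and 0.07 (-0.23 to 0.38), and CYP79F2 0.33 (0.01 to 0.66, adjusted p 0.131) and 0.34 (0.02 to 0.66, adjusted p 0.109). In an edgeR fit of the caterpillar and mite libraries alone, FMOGS-OX1 passed in primed plants (0.37, adjusted p 0.00226) and CYP79F1 in not-primed plants (0.24, adjusted p 0.049). The groups lay apart, caterpillars above mites, for 8 of the 10 genes in primed plants (11.4% of tested genes) and for 7 in not-primed plants (13.7%).

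Several of these calls lay close to the threshold. In not-primed plants SOT18 was not called when any of the 8 libraries was left out (adjusted p 0.0537 to 0.168), while its log2 fold change stayed at 0.23 to 0.32, GSTF11 was not called in 6 of the 8 cases (up to 0.116) and UGT74C1 in 4 of the 8 (up to 0.089). Without caterpillar replicates 1 and 2 of the not-primed group, FMOGS-OX3 (log2 fold change 0.49, adjusted p 0.0139) was the 1 gene of the 10 still called, with 21.5% of tested genes called in either direction, and without replicates 3 and 4 there were 7 (16.6%). In primed plants CYP79F1 was not called in 7 of the 8 cases (up to 0.113), with log2 fold changes of 0.41 to 0.51. CYP83A1, GSTU20 and FMOGS-OX3 remained called in both kinds of plant with any single library left out.

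Levels were also compared within each related pair of genes, library by library. The ratio of SOT17 to SOT18, in FPKM, had a geometric mean of 0.863 in not-primed mite plants, against 0.577 in not-primed controls. In primed mite plants it was 1.58 times that of primed controls, where it was 0.525. It was 0.622 in primed and 0.683 in not-primed caterpillar plants. The 8 mite libraries, from 0.787 to 0.881, lay above all libraries of the other groups. The ratio of FMOGS-OX1 to FMOGS-OX3 was 1.52 in primed and 1.59 in not-primed mite plants, against 0.904 and 0.860 in the controls. With caterpillars it was 1.05 in both kinds of plant. Its 8 mite libraries, from 1.36 to 1.69, again lay above all libraries of the other groups, of which the highest was 1.20.

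CYP79F2 to CYP79F1 ran the other way, with both pests below the controls. The ratio was 0.0499 in primed and 0.0611 in not-primed caterpillar plants and 0.0552 and 0.0567 in mite plants, against 0.0806 and 0.0894 in the controls. All 16 pest libraries, at most 0.0675, lay below the 8 controls, at least 0.0714. A ratio within a library does not depend on how libraries are scaled, and it shows an unequal change, not which gene moved. How often the ratios of other gene pairs separate these groups was not computed, so the separation is not shown to be particular to these 3 pairs. Of single genes, 21.2% in primed and 23.5% in not-primed plants lay wholly above controls with mites. Across the 3 pairs and 9 group comparisons, 14 of 27 exact 2-sided permutation tests reached 0.0286, the smallest p that 4 against 4 libraries allow. After Benjamini-Hochberg adjustment over the 27 that p became 0.0551, so no ratio passed 0.05. However wide its separation, a ratio could pass only if more of the 27 tests reached that smallest p.

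**Figure D3:**
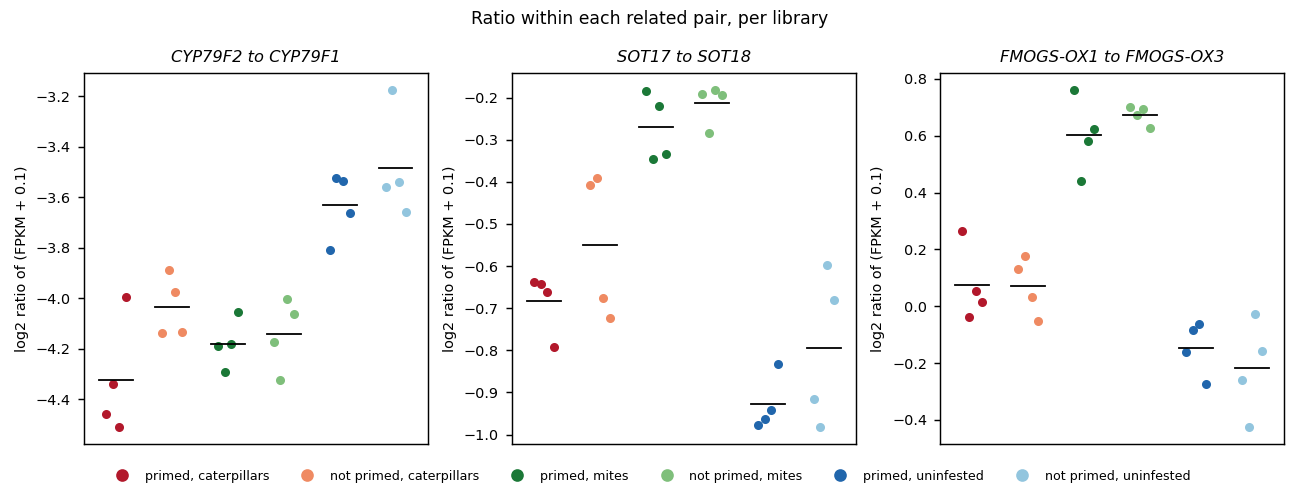
Log2 ratio of FPKM + 0.1 within the 3 related pairs; each point is 1 library and each line a group mean of 4 libraries. In the SOT17 to SOT18 panel and the FMOGS-OX1 to FMOGS-OX3 panel both mite groups lie above all other libraries, and in the CYP79F2 to CYP79F1 panel the uninfested groups do.

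Priming alone changed none of the 10 genes at this threshold. In uninfested plants, primed over not primed, the log2 fold changes ran from -0.20 to 0.01, with 95% intervals between -0.58 and 0.28, and 0 of 10 passed in edgeR (14.8% of tested genes called in either direction). Under mites they ran from -0.15 to 0.11 (intervals between -0.46 and 0.41; 0 of 10; 6.36%), and under caterpillars from -0.04 to 0.24 (intervals between -0.36 and 0.58; 0 of 10; 8.15%). None of the 10 had an unadjusted p under 0.05 in these comparisons, and DESeq2 called none. Under caterpillars 9 of the 10 had a higher mean in primed plants with all libraries. Without not-primed caterpillar replicates 1 and 2 all 10 log2 fold changes lay above 0 (0.14 to 0.47), and without replicates 3 and 4 they ran from -0.24 to 0.07, with 3 above 0, so the tally depended on the pair kept. The highest differences with all libraries were those of CYP79F1 (0.24 ± 0.16, adjusted p 0.421) and GSTF11 (0.23 ± 0.17, adjusted p 0.474), and for both the primed and not-primed libraries overlapped. Under mites the groups lay apart for FMOGS-OX1, with 111, 111, 94.6 and 103 CPM in primed plants, all below the 118, 115, 120 and 112 CPM of not-primed plants (log2 fold change -0.15 ± 0.15, adjusted p 0.681; 5.66% of tested genes lay wholly below).

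The caterpillar effect had a higher value in primed than in not-primed plants for all 10 genes, by 0.12 (CYP83A1) to 0.43 (GSTF11) on the log2 scale, with 95% intervals of the difference between -0.33 and 0.94. No gene of the 10 passed the test of that difference (lowest adjusted p 0.753), no tested gene did in edgeR (0 of 20038, or 0%; 1445 had an unadjusted p under 0.05), and DESeq2 called 10 genes, none of them among these. For mites the difference ran from -0.09 (FMOGS-OX1) to 0.27 (GSTU20), with 0 of 10 called (1.1% of tested genes), and the priming effect under caterpillars minus that under mites ran from -0.01 to 0.30, with 0 of 10 called (0.00998%).

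The signs of these differences also turned with the pair of libraries kept, with 0 of 10 called in every case. For caterpillars they ran from 0.33 to 0.77 without not-primed control replicates 1 and 2, and from -0.21 to 0.05 without replicates 3 and 4. They ran from 0.27 to 0.67 without not-primed caterpillar replicates 1 and 2, and from -0.07 to 0.21 without replicates 3 and 4. For mites all 10 lay above 0 without control replicates 1 and 2 (0.22 to 0.56) and all 10 below 0 without replicates 3 and 4 (-0.47 to -0.05). Between the pests, they ran from 0.18 to 0.57 without caterpillar replicates 1 and 2, and from -0.20 to 0.07 without replicates 3 and 4.

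The sign of the priming effect in uninfested plants depended on the pair of not-primed controls kept. Without replicates 1 and 2, all 10 log2 fold changes were below 0 and 5 were called lower (6.89% of tested genes called in either direction). These were SOT17 (-0.56 ± 0.13, edgeR adjusted p 0.00967), GSTF11 (-0.55 ± 0.14, adjusted p 0.0124), GSTU20 (-0.45 ± 0.12, adjusted p 0.0254), CYP79F1 (-0.42 ± 0.11, adjusted p 0.0202) and UGT74C1 (-0.37 ± 0.08, adjusted p 0.00514). Without replicates 3 and 4, CYP79F1 was called higher (0.40 ± 0.14, adjusted p 0.0372; 22.8% of tested genes called), and the others lay between 0.00 and 0.32. Without not-primed control replicate 2 alone, UGT74C1 (adjusted p 0.0112) and GSTF11 (adjusted p 0.0427) were called lower. The 4 primed controls of GSTF11, at 19.9 to 27.2 CPM, stood between not-primed control replicate 2, at 13.1 CPM, and replicates 3 and 4, at 30.4 and 35.0 CPM.

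**Figure D4:**
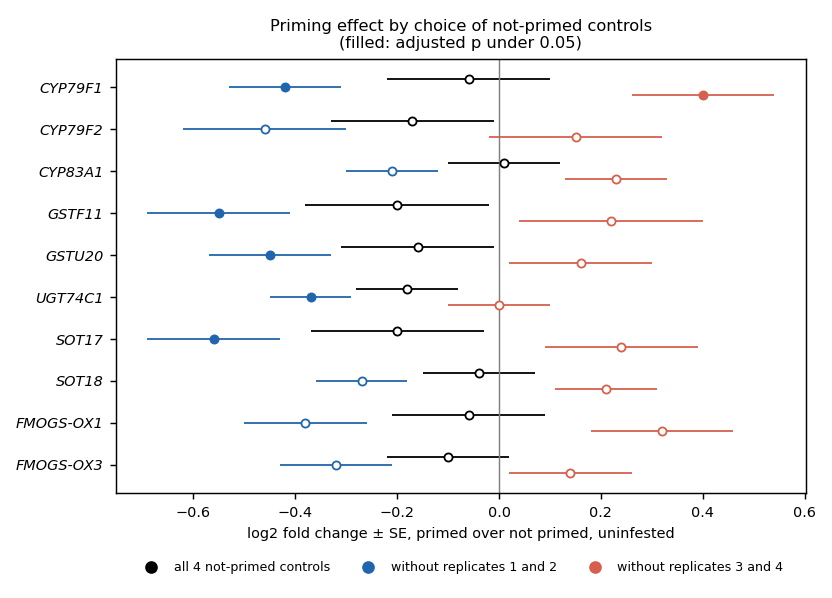
Log2 fold change (points) with SE (bars) of primed over not-primed uninfested plants, with all 4 not-primed controls, without replicates 1 and 2, and without replicates 3 and 4. The points lie left of 0 in the second case, and at or right of 0 in the third.

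The regulators MYB28, MYB29 and MYB76, transcription factors that activate aliphatic glucosinolate genes, did not move as a group. MYB28 averaged 44.8 ± 1.92 CPM in primed mite plants and 90.2 ± 3.58 CPM in primed controls (SD, n = 4 each), a log2 fold change of -1.01 ± 0.08 (edgeR adjusted p 6.09e-10). In not-primed plants the change with mites was -0.97 ± 0.08 (adjusted p 9.12e-10). With caterpillars MYB28 averaged 80.3 ± 8.73 CPM in primed plants (-0.17 ± 0.08, adjusted p 0.133), and in not-primed plants it fell by 0.34 ± 0.08 on the log2 scale (adjusted p 0.00232). MYB28 was thus lower with mites in both kinds of plant, where 6 of the 10 enzyme genes were higher. MYB76 rose with mites by 1.00 ± 0.26 (adjusted p 0.00238) in primed and 1.18 ± 0.27 (adjusted p 0.000634) in not-primed plants, and with caterpillars by 1.81 ± 0.25 (adjusted p 7.68e-06) and 1.96 ± 0.26 (adjusted p 4.13e-06). Its level stayed low, at 11.7 ± 2.25 CPM in primed caterpillar plants and 3.33 ± 0.721 CPM in primed controls. MYB29 rose with caterpillars (0.49 ± 0.13, adjusted p 0.00556, in primed and 0.38 ± 0.13, adjusted p 0.0272, in not-primed plants) and had -0.01 ± 0.13 (adjusted p 0.979) and 0.03 ± 0.13 (adjusted p 0.871) with mites. All 3 were higher with caterpillars than with mites in both kinds of plant. In not-primed plants, MYB28 stayed lower with mites without either pair of controls (-0.84 ± 0.09 and -1.10 ± 0.09). Without control replicates 1 and 2 neither MYB28 (-0.20, adjusted p 0.139) nor MYB29 (0.26, adjusted p 0.243) was called with caterpillars. Without caterpillar replicates 1 and 2, MYB29 was not called with caterpillars over controls (0.31, adjusted p 0.198), and against mites only MYB28 was called.

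For the lists that follow, the shares of all tested genes that were higher are those given above, 12.1% in primed and 14.2% in not-primed plants with caterpillars and 22.3% and 26.5% with mites. Of 9 genes of methionine chain elongation, the steps before CYP79F1, 9 rose with caterpillars in primed and 8 in not-primed plants, and with mites 5 rose in primed and 4 in not-primed plants. The median log2 fold change of the 9 was 0.91 in primed and 0.60 in not-primed caterpillar plants, and 0.43 and 0.18 in mite plants. BCAT4, the aminotransferase that opens the pathway, averaged 731 CPM in primed caterpillar plants, 470 CPM in primed mite plants and 226 CPM in primed controls. Its log2 fold change with caterpillars was 1.69 ± 0.20 (edgeR adjusted p 8.56e-07) and with mites 1.06 ± 0.20 (adjusted p 9.51e-05). BCAT3, a related aminotransferase of the final step, fell by 0.29 ± 0.05 with mites in not-primed plants (adjusted p 8.83e-05). With all libraries, this was the 1 lower call in this list for either pest over its controls. Caterpillar plants were higher than mite plants for 8 of the 9 in primed and 7 in not-primed plants. IPMI-SSU2 and IPMI-SSU3, small subunits of the isomerase of the cycle, differed most. IPMI-SSU3 averaged 154 CPM in primed caterpillar plants and 83.8 CPM in primed mite plants (0.87 ± 0.14, adjusted p 8.09e-05), and IPMI-SSU2 differed by 0.84 ± 0.15 in not-primed plants (adjusted p 0.000138). In not-primed plants, 6 of the 9 rose with caterpillars without control replicates 1 and 2, and 4 without caterpillar replicates 1 and 2. Of all tested genes, 12.5% and 16% were called in either direction in these fits. With mites, 1 rose and 3 fell without control replicates 1 and 2 (37.9% called in either direction). Against mites, 2 were higher without caterpillar replicates 1 and 2 (21.5% called in either direction).

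The core genes shared with the indole branch rose with both pests. All 6 (GGP1, SUR1, UGT74B1, SOT16, GSTF9 and GSTF10) rose with caterpillars in both kinds of plant, and 6 in primed and 5 in not-primed plants rose with mites. Their median log2 fold change was 1.02 in primed and 0.90 in not-primed caterpillar plants, and 1.29 and 1.15 in mite plants. Set directly against mites, 0 of the 6 were higher with caterpillars, and 2 in primed and 1 in not-primed plants were lower, with medians of -0.07 in primed and -0.09 in not-primed plants. GGP1, a peptidase that trims the glutathione conjugate, averaged 586 CPM in primed caterpillar plants and 668 CPM in primed mite plants, against 210 CPM in primed controls. SOT16, the sulfotransferase of the indole branch, averaged 191 ± 32.6 CPM in primed caterpillar plants and 280 ± 14.2 CPM in primed mite plants (-0.55 ± 0.17, edgeR adjusted p 0.0237). GSTF10, a glutathione transferase, was lower with caterpillars than with mites by -0.71 ± 0.11 (adjusted p 4.54e-05) in primed and -0.41 ± 0.11 (adjusted p 0.00769) in not-primed plants.

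Of 5 tested genes at the entry of the indole branch, 4 rose with each pest in each kind of plant. CYP79B2, which makes the tryptophan-derived aldoxime, rose with mites by a log2 fold change of 2.13 ± 0.26 (edgeR adjusted p 2.48e-07) in primed and 2.20 ± 0.25 (adjusted p 9.59e-08) in not-primed plants. The fifth, MYB51, a regulator of the indole branch, fell with caterpillars in primed plants (-0.58 ± 0.18, adjusted p 0.0226). None of the 5 was higher with caterpillars than with mites, and 3 in primed and 1 in not-primed plants were lower. Of 4 genes that supply activated sulfate (APK1 and APK2) or transport glucosinolates (GTR1 and GTR2), all 4 rose with each pest in each kind of plant. GTR2 was lower with caterpillars than with mites, by -0.72 ± 0.13 (adjusted p 0.000168) in primed and -0.55 ± 0.12 (adjusted p 0.00183) in not-primed plants.

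Among the other side-chain genes, 6 of 8 were tested. With caterpillars 4 of the 6 rose in each kind of plant. With mites 4 rose and 1 fell in primed plants, and 5 rose in not-primed plants. BZO1, a ligase on the route to benzoylated side chains, had the largest changes at a low level. It averaged 2.43 ± 0.96 CPM in primed caterpillar plants and 3.08 ± 1.06 CPM in primed mite plants, against 0.285 ± 0.101 CPM in primed controls (SD, n = 4 each). FMOGS-OX2, a close relative of FMOGS-OX3, rose with mites by 0.65 ± 0.19 (edgeR adjusted p 0.00535) in primed and 1.60 ± 0.19 (adjusted p 1.33e-07) in not-primed plants, where FMOGS-OX3 did not pass. AOP1, a dioxygenase gene of the side-chain locus, was the gene that fell with mites in primed plants (-0.50 ± 0.15, adjusted p 0.0097). Primed over not primed, each of these 6 lists had 0 or 1 called genes in each direction in each infestation state. The rosette markers had 2 of 3 lower in uninfested plants (median -0.21).

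In not-primed plants, the counts of these last lists were also taken without either pair, a setting added after seeing the data. With caterpillars over controls, 5 or 6 of the 6 shared core genes, 4 of the 5 indole entry genes, 3 or 4 of the 4 sulfate and transport genes and 3 or 4 of the 6 side-chain genes rose in each case. With mites, 5 or 6, 4, 4 and 5 of these rose. Of all tested genes, 12.5% to 34.5% were called in either direction in these fits with caterpillars, and 37.9% or 50.7% with mites. Set against mites, the lower calls depended on the caterpillar pair kept. Without caterpillar replicates 1 and 2 there were 2 lower calls among the shared core genes, 3 among the indole entry genes and 2 among the sulfate and transport genes. Without replicates 3 and 4 there was none, with 1 shared core gene higher. In those fits 21.5% and 16.6% of tested genes were called in either direction.

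Across the 24 libraries the log2 CPM of each gene was correlated with the mean of the other 9, which share libraries and groups. Pearson's r was highest for GSTF11 and SOT18 (0.986 each), and lowest for FMOGS-OX3 (0.835), SOT17 (0.849) and CYP79F2 (0.871). Of 14364 other genes with a mean of at least 5 CPM, the 8 most like the mean profile of the 10 were IPMDH1 (r = 0.982), AK-HSDH I (0.980), MAM1 (0.980), AK3 (0.978), IPMI-LSU1 (0.976), SUR1 (0.973), BCAT4 (0.970) and AT1G21440 (0.969). IPMDH1, MAM1, IPMI-LSU1 and BCAT4 are chain elongation genes and SUR1 is the core carbon-sulfur lyase. AK-HSDH I and AK3 encode aspartate kinases, which act on the route to methionine. These correlations describe a ranking over 24 libraries that fall into 6 groups.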

How the data were processed

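RNA of 24 rosette libraries (RNeasy extraction, NEBNext Ultra library kit, per the labels' protocols) was sequenced by the authors, who deposited a table of raw counts per gene. They also deposited FPKM values per library, which the authors scaled by gene length and depth. The submitters' processing notes name HISAT2 as a tool and TAIR10 as the genome build. The HISAT2 version, counting tool, annotation and use of strand are not given in the sources used. Library totals of 15852109 to 27986799 counts set the precision, and each of the 10 genes had at least 243 counts in every library.

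Counts were tested with edgeR 4.0.16 in R 4.3.3: TMM scaling, a filter on low counts by group that kept 20038 of 32833 genes (6603 had no count), and the quasi-likelihood test with 1 mean per group over all libraries. P-values were adjusted by Benjamini-Hochberg over the tested genes, with a threshold of 0.05. The SE of a log2 fold change was its size divided by the square root of the F statistic. CPM used TMM-scaled library sizes, and log2 CPM a prior count of 2. The fits were tested on data simulated for the mite comparison in not-primed plants. There edgeR recovered 80 of 99 genes altered by a factor of 2 and 54 of 98 altered by a factor of 1.5. Changes of these sizes were thus missed in the simulation, where few of the 19843 genes run were altered. In the data 10298 genes were called in that comparison, so the adjustment over genes was stricter in the simulation. The recovery rates therefore do not give the share missed among the chosen genes, which was not tested. Within related pairs, log2 ratios of counts + 1 were compared by exact 2-sided permutation tests.

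Alternatives were DESeq2 1.42.0 (its size factors, its Wald test), limma 3.58.1 on log2(FPKM + 1) and log2(FPKM + 0.1), no filter, groups compared alone, a replicate block, each library left out, and pairs of libraries left out. The 10 genes and the gene lists were chosen with earlier results of these data known. In each list the genes with the largest changes were named first, and then the 8 genes most correlated with the mean profile of the 10. The files hold locus identifiers without symbols. Of these, 99.1% matched the RefSeq gene table, which gave the symbols, except that of UGT74C1, named by its locus.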

Additional observations from a re-analysis of the deposited data

Results flagged for a closer look

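In each gene and group of 4 libraries, the gap between the highest or lowest library and its nearest neighbour was set against the group's range (Dixon's test at the 95% level). Of the 60 gene and group combinations, 5 had such a lone library, and chance gives about 1 in 20.

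In the primed controls, replicate 4 was the highest library for every gene of the chosen pathway set. The share of all tested genes with that library highest was not computed. CYP79F1, which was not flagged in this group, had 359 CPM there, against 249 to 287 CPM in the other replicates. The test flagged replicate 4 for 3 genes. SOT17 had 62.3 CPM in that library, against 45.8 to 47.1 CPM in the other replicates. SOT18 had 102 CPM, against 81.4 to 84.6 CPM, and FMOGS-OX3 had 112 CPM, against 86.8 to 88.7 CPM. The direction of the small mite effect on FMOGS-OX3 in primed plants turned without this library, to a log2 fold change of 0.08. In primed mite plants, GSTF11 had 45.0 CPM in replicate 2 and 36.3 to 37.7 CPM in the others. In not-primed mite plants, CYP79F1 had 481 CPM in replicate 2 and 492 to 494 CPM in the others, a range that is narrow beside that of every other group.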

How the results depend on the processing

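The count of the 10 genes called stayed at 6 (primed) and at 5 to 6 (not primed) with mites when single libraries were left out, and at 9 to 10 (primed) and 8 to 10 (not primed) with caterpillars. For caterpillars against mites in not-primed plants it was 6, 3 to 5 with single libraries left out, 3 with limma on log2(FPKM + 1) without a filter, and 1 without not-primed caterpillar replicates 1 and 2, a setting chosen after seeing the data. For primed against not-primed uninfested plants it was 0, 0 to 2 with single libraries left out, 5 without not-primed control replicates 1 and 2, and 1 without replicates 3 and 4.

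Small differences that changed direction had missed the threshold with all libraries. With mites in not-primed plants they became -0.21 (CYP79F2), -0.09 (CYP83A1) and -0.16 (UGT74C1) on the log2 scale without control replicates 1 and 2, and 0.20 (FMOGS-OX3) without replicates 3 and 4. For caterpillars against mites in not-primed plants FMOGS-OX1 became -0.19 without caterpillar replicates 1 and 2, and SOT17 became 0.21 without replicates 3 and 4. Leaving out single libraries gave ranges of -0.04 to 0.21 (CYP79F2), -0.09 to 0.11 (UGT74C1) and -0.19 to 0.07 (FMOGS-OX3) with mites in not-primed plants, and of -0.10 to 0.08 (FMOGS-OX3) in primed plants. For caterpillars against mites they were -0.12 to 0.04 (SOT17) and -0.02 to 0.16 (FMOGS-OX1) in not-primed plants, and -0.01 to 0.08 (SOT17) in primed plants. The cause was not tested.

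Replicate numbers were not taken to pair the libraries, since 4 of 60 same-number pairs had a correlation over 0.1. Of the 24 libraries, 12 correlated best with their own number, where 6 would do so if the numbers carried nothing, a hint from the data of some pairing. With the replicate block, 1 call among the 10 genes was lost, that of SOT18 for caterpillars against mites in not-primed plants (log2 fold change 0.30, edgeR adjusted p 0.0557). Sign flips within pairs cannot go below a p of 0.125 for the pair ratios. The call of SOT18 was also lost with DESeq2 size factors (adjusted p 0.0518), that of GSTF11 in the same comparison with the DESeq2 Wald test (0.0583), and that of CYP79F1 in primed plants with limma (0.0563 or more). Both SOT18 (0.0641 or more) and GSTF11 (0.0757 or more) were lost there with limma too.

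Over all tested genes, calls for caterpillars in not-primed plants numbered 5574, and 2495 without control replicates 1 and 2 or 3201 without caterpillar replicates 1 and 2. Calls for priming numbered 2962 in uninfested plants, and 1380 or 4578 without the one or the other pair of controls. Without control replicate 1 of the not-primed group alone there were 1846. Under caterpillars there were 1634, 1085 without primed caterpillar replicate 4, and 956 or 936 without the one or the other caterpillar pair. Calls for caterpillars against mites in not-primed plants numbered 5147, and 3320 without caterpillar replicates 3 and 4. The interaction of priming with mites had 221 calls, 691 with DESeq2, 135 with limma without a filter, and 114 or 2087 without the one or the other control pair. Single libraries left out gave 68 to 632 for it. That with caterpillars had 0 in edgeR, 1 without a filter, 10 with DESeq2, 2 with limma without a filter, 9 or 487 without the one or the other control pair, and 6 without caterpillar replicates 3 and 4. That between the pests had 2, 45 with DESeq2, 4 or 5 with limma, 4 with the replicate block, and 4 or 0 without the one or the other caterpillar pair.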
